A study of Mus musculus with 2 samples.

Results

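The EGF family of growth factors and its receptors were measured in the epidermis of mouse pups in which the transcription factor SOX11 had been induced. All probes carrying the name of 1 of 10 genes were taken: the receptors Egfr, Erbb2 and Erbb3, the ligands Epgn, Ereg, Areg, Btc, Hbegf and Tgfa, and the receptor inhibitor Errfi1. The 10 genes, of 34820 names on the array, had 12 probes, 3 of them for Egfr. The rule that took their probes used gene names and no measured value, although the genes were chosen with earlier results of these data known. Each of 2 two-colour arrays compared 1 littermate pair. The control pup carried K14-rtTA and the SOX11-induced pup K14-rtTA;TRE-Sox11-FLAG, in which rtTA, made under the keratin 14 promoter, switches on a FLAG-tagged Sox11 in the presence of doxycycline (Dox). All 4 pups were FVB/N, were labelled P4.5 (postnatal day 4.5) and received Dox for 12 h, so that Dox and rtTA were shared by both groups. Per the methods of the study, pairs were matched for gender and the epidermis was peeled from dorsal skin after dispase treatment, so each sample held hair follicle cells and other cells of the sheet beside interfollicular keratinocytes.

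The values below are log2 ratios of the SOX11-induced channel (Cy5) over the control channel (Cy3), positive where a transcript was brighter after SOX11 induction. The error of a mean is the SD of the 2 pairs, and adjusted p-values come from a limma fit over 55676 probes. Cy5 marked the SOX11-induced pup each time, so dye and genotype cannot be told apart within a probe, and the colour swap described in the methods is not shown by the labels. In bulk epidermis, fewer cells of a type and less RNA per cell cannot be told apart either. Neither of the 2 Sox11 probes was well above background in any channel, and whether they lie in the part of Sox11 that the transgene carries was not determined, so they could not check the labels.

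EGF family ligands are made as membrane-bound precursors, are cut from the cell surface by metalloproteases, and bind receptor tyrosine kinases that then pair and signal through RAS and ERK. EGFR binds all 6 ligands measured here, ERBB2 has no known ligand and acts as a partner receptor, and ERBB3 binds neuregulins and has a weak kinase of its own. In the epidermis this system maintains basal keratinocyte growth and migration and restrains terminal differentiation, and ERRFI1 (MIG6) is a feedback inhibitor of the activated receptors.

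The genes Epgn, Ereg, Areg and Btc lie side by side on chromosome 5. Promoter sequence is shown for the 3 of them with a RefSeq window, since 1 rose after SOX11 induction and the other two did not pass the test, and for Erbb2, the receptor that fell. Each line gives the 250 bases before the annotated start on GRCm38.p6, in the direction of transcription, and capitals mark TATAAA (searched on both strands). The windows are chr5:91027267-91027516 (plus strand) for Epgn, chr5:91139349-91139598 (plus strand) for Areg, chr5:91402995-91403244 (minus strand) for Btc and chr11:98412234-98412483 (plus strand) for Erbb2.
Epgn: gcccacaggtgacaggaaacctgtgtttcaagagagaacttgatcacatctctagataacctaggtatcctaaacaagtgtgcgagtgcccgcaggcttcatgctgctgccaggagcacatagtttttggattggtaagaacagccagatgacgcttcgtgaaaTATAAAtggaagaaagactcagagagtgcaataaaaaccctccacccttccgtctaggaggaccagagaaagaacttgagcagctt
Areg: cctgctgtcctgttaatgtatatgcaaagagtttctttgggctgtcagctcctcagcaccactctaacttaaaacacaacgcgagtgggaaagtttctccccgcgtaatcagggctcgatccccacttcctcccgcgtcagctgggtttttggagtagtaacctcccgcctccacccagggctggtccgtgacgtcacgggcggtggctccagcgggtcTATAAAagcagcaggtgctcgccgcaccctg
Btc: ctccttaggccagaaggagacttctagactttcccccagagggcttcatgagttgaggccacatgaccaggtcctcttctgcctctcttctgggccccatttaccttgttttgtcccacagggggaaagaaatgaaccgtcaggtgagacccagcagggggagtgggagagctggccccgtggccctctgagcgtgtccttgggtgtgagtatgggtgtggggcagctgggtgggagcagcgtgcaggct
Erbb2: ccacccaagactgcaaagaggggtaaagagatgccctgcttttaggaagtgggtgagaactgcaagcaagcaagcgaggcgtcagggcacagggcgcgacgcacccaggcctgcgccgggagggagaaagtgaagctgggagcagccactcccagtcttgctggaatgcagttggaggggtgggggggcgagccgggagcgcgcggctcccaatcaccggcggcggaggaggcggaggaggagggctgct
The Epgn window held TATAAA 86 bases before the start and the Areg window 31 bases before it, a hexamer found in 12.4% of 32851 such windows. The letters ACAAAG and ACAATG, forms of the sequence that SOX proteins bind, occurred on neither strand of these 4 windows, while 25.2% of all windows held at least 1 of them. Among the 7 member genes whose windows were read, 1 of the Errfi1 windows held ACAAAG, 104 bases before that start. The Epgn window had a GC content of 46.8%, against 66.0% for Erbb2 and a median of 52.4% over all windows.

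Of the 12 probes, all were well above background in both channels of both arrays, although for Tgfa only 6 of 10 spots were so in the control channel of pair 1. No spot of these probes was saturated. Epgn was the 1 probe that rose at an adjusted p under 0.05, against a background of 2.9% of all probes, and Erbb2 was the 1 that fell, against 1.35%. Only Epgn passed the further threshold of 1.5 on the log2 scale that the study's methods give. Of all probes, 0.365% passed it upward and 0.0862% downward, the latter including none of the 12. The legend of the study's heat map instead gives a fold change above 1.5, which Erbb2, 1.66-fold lower, would also pass. The share of all probes past that wording was not counted. By gene, 2 of 10 members passed, against 5.88% of all gene names. These shares also count probes that were not above background. When only the 21782 probes above background were tested, 1693 rose and 823 fell, among them 2 and 1 of the 12. In the main fit, 5 of the 12 probes were above 0 in both pairs and 6 below 0 in both, with Areg divided. The share of all probes with the same sign in both pairs was not counted. The median of the 12 means was 0.00 on the log2 scale, against 0.01 over all probes.

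**Figure D1:**
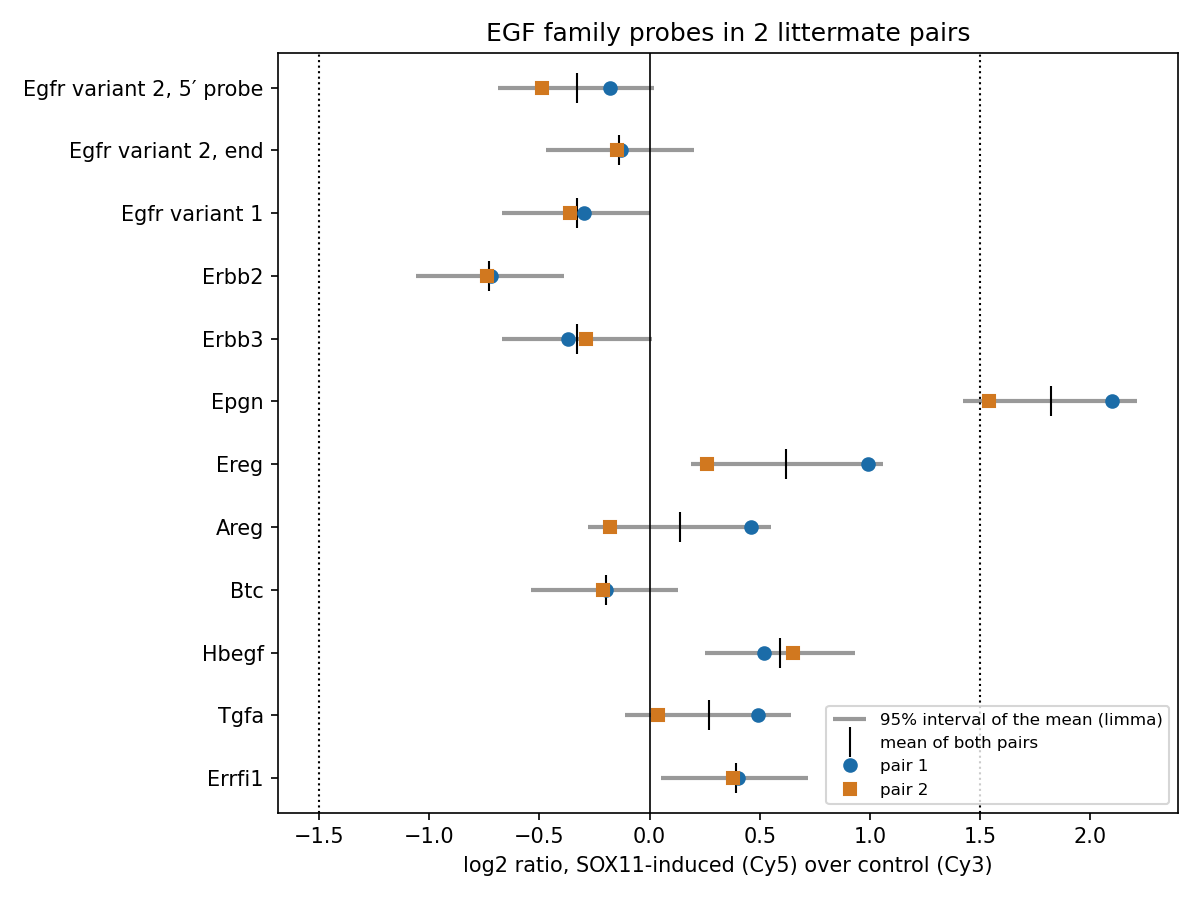
Log2 ratios of SOX11-induced over control epidermis for the 12 probes of the EGF family, with pair 1 as circles, pair 2 as squares, the mean as a tick and its 95% interval as a bar; dotted lines mark log2 ratios of 1.5 and -1.5. Epgn, at 2.10 and 1.54, stands to the right of all other members, and Erbb2, at -0.72 and -0.74, to the left.

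All 5 receptor probes had ratios below 0 in both pairs, and Erbb2 passed the test. The Erbb2 probe (chr11:98298103-98298162, mm9) had a log2 brightness of 9.95 and 9.93 in the control pups and of 9.23 and 9.19 in the SOX11-induced pups. The groups did not overlap, and the log2 ratios of -0.72 and -0.74 gave a mean of -0.73 ± 0.0137 (SD, n = 2 pairs; 95% interval -1.06 to -0.39), a 1.66-fold lower level with an adjusted p of 0.0291 in limma. This probe was spotted 10 times on each array. The 8 spots kept in pair 1 ran from -0.82 to -0.67 with a median of -0.70, and the 10 spots in pair 2 from -0.80 to -0.59 with a median of -0.75. Every spot was therefore below 0, and the spread between spots was larger than the gap between the pairs. The fall was lost with another centring. With each array centred on its median instead, the Erbb2 mean was -0.11 with an adjusted p of 0.614. That centring moved the median of the probes above background from 0.04 and 0.03 to 0.49 and 0.57, so that Erbb2 was still below the typical transcript.

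Egfr was measured by 3 probes at different places of the gene, each on the plus strand of chromosome 11. In the file annotation, 2 are assigned to transcript variant 2, which as background ends early and encodes a soluble form of the receptor without the kinase, and 1 to variant 1, the full-length receptor. The 60 bases of the variant 2 probes are shown to tell these apart, the first from chr11:16783556-16783615 and the second from chr11:16787172-16787231 (mm9).
Egfr probe 1: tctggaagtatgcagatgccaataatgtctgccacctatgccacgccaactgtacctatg
Egfr probe 2: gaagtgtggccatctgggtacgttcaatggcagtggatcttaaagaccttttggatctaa
Whether the first of these also detects variant 1 was not determined. The variant 1 probe (chr11:16813815-16813874) had a log2 brightness of 10.52 and 10.46 in the controls and of 10.21 and 10.10 after SOX11 induction. The groups did not overlap, but the mean of -0.33 ± 0.04 (SD, n = 2 pairs; 95% interval -0.67 to 0.00) did not pass the limma test (adjusted p = 0.242). Its 10 spots had medians of -0.32 in pair 1 and -0.34 in pair 2, all below 0. Probe 1 had log2 ratios of -0.18 and -0.49 with a mean of -0.33 (adjusted p = 0.265), and probe 2 of -0.13 and -0.15 with a mean of -0.14 (adjusted p = 0.638; 95% interval -0.47 to 0.20). The 3 probes thus gave the same direction and overlapping intervals. A difference between the variant 1 probe and probe 2 was not detectable, and probe 1 may not separate the variants. Their direction depended on the loess curve as well, since median centring gave 0.31, 0.21 and 0.29 for the variant 1 probe, probe 1 and probe 2. These values were still below the medians of the probes above background, 0.49 and 0.57 with that centring.

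The Erbb3 probe (chr10:128006424-128006483, minus strand, mm9) was near the dim end of the members, with a log2 brightness of 6.67 and 6.74 in the controls and of 6.31 and 6.44 in the SOX11-induced pups. The groups did not overlap by a small margin, and the mean of -0.33 ± 0.0506 (SD, n = 2 pairs; 95% interval -0.67 to 0.01) had an adjusted p of 0.246 in limma. Its value with median centring was 0.00, below the medians of 0.49 and 0.57 for the probes above background.

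**Figure D2:**
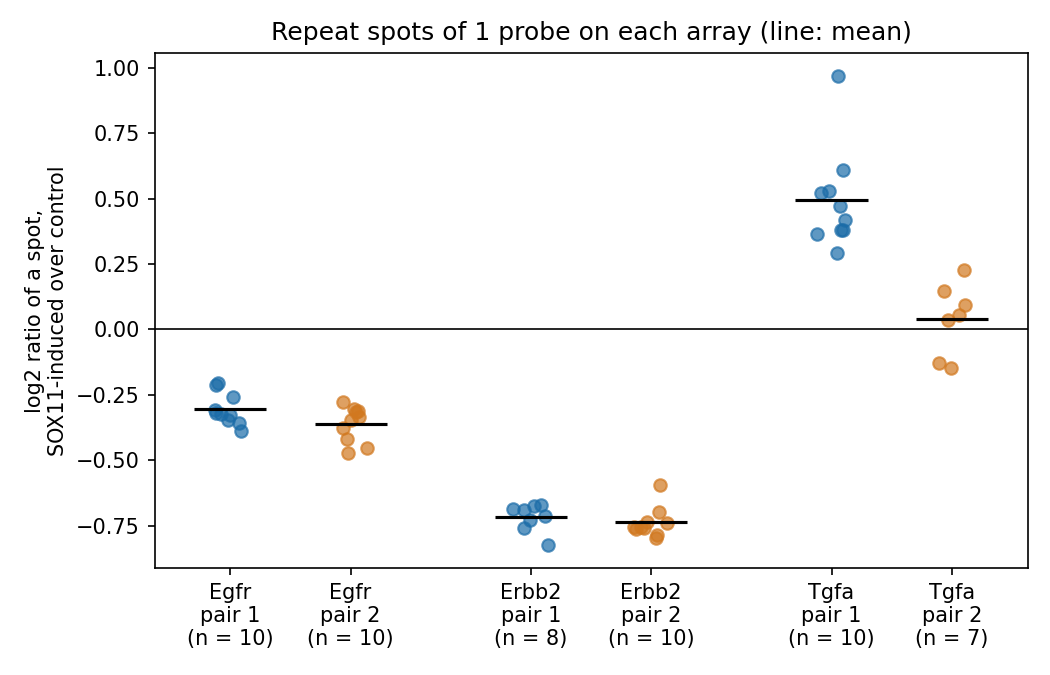
Log2 ratios of single spots for the 3 probes of Egfr (variant 1), Erbb2 and Tgfa that were spotted 10 times per array, after flagged spots were left out; each point is a spot and the line its mean. Spots of Egfr and Erbb2 all lie below 0 in both pairs, while those of Tgfa run from 0.29 to 0.97 in pair 1 and from -0.15 to 0.23 in pair 2.

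Among the ligands, Epgn (epigen), a low-affinity ligand of EGFR, rose 3.52-fold. Its probe (chr5:91464119-91464178, plus strand, mm9) had a log2 brightness of 9.21 and 9.50 in the control pups and of 11.31 and 11.04 in the SOX11-induced pups. Both SOX11-induced pups were thus far above both controls, and the controls differed by 0.29. The log2 ratios of 2.10 and 1.54 gave a mean of 1.82 ± 0.398 (SD, n = 2 pairs; 95% interval 1.42 to 2.21), with an adjusted p of 0.000726 in limma. The probe ranked 122 from the top among 21782 probes above background. Its mean ran from 1.78 to 2.46 over the normalizations tried, and the call was lost with the processed signals of the scanner software (mean 1.90, adjusted p = 0.259), under which no probe of the array passed.

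The neighbouring ligand genes did not pass the test with loess centring. With median centring, which raised all members, Ereg (1.20, adjusted p = 0.00103 in limma) and Areg (0.72, adjusted p = 0.0105 in limma) passed and Btc, at 0.40, did not. The medians of the probes above background were 0.49 and 0.57 with that centring. Ereg (epiregulin; probe chr5:91522553-91522612, plus strand, mm9) had a log2 brightness of 8.24 and 8.63 in the controls and of 9.23 and 8.88 after SOX11 induction. The groups did not overlap, but the ratios of 0.99 and 0.26 differed between pairs by 0.73, and the mean of 0.62 ± 0.519 (SD, n = 2 pairs; 95% interval 0.19 to 1.06) had an adjusted p of 0.108 in limma. Areg (amphiregulin, a ligand that drives keratinocyte growth; probe chr5:91570090-91570149, plus strand) was at 8.16 and 9.30 in the controls and at 8.61 and 9.11 in the SOX11-induced pups. For Areg the 2 controls were further apart, by 1.14, than either pup was from its littermate, and the log2 ratios were 0.46 and -0.18 with a mean of 0.14 ± 0.451 (SD, n = 2 pairs; adjusted p = 0.714 in limma). Btc (betacellulin, which binds EGFR and ERBB4; probe chr5:91786948-91787007, minus strand) was at 9.27 and 9.32 in the controls and at 9.07 and 9.11 in the SOX11-induced pups. The Btc pairs were nearly equal, at -0.20 and -0.21, and the mean of -0.20 (95% interval -0.54 to 0.13) had an adjusted p of 0.476 in limma.

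All probes within 100 kb of the outermost of these 4 ligand probes were then read, a region chosen after values had been seen. It held 9 probes. Mthfd2l, a mitochondrial folate enzyme gene whose probe (chr5:91450245-91450304, mm9) lies 13.9 kb before that of Epgn, also rose, with log2 ratios of 1.26 and 0.95 and a mean of 1.11 ± 0.218 (SD, n = 2 pairs; adjusted p = 0.00554 in limma). A long noncoding RNA annotated on the minus strand at chr5:91480533-91502237, between Epgn and Ereg, had 3 adjacent probes with means of 0.38, 0.32 and 0.60, none of which passed the test and none of which was above background in every channel. E330024J20Rik, whose probe lies beyond that of Mthfd2l, was not above background in any channel. The 2 genes of the region that rose, Mthfd2l and Epgn, had neighbouring probes.

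**Figure D3:**
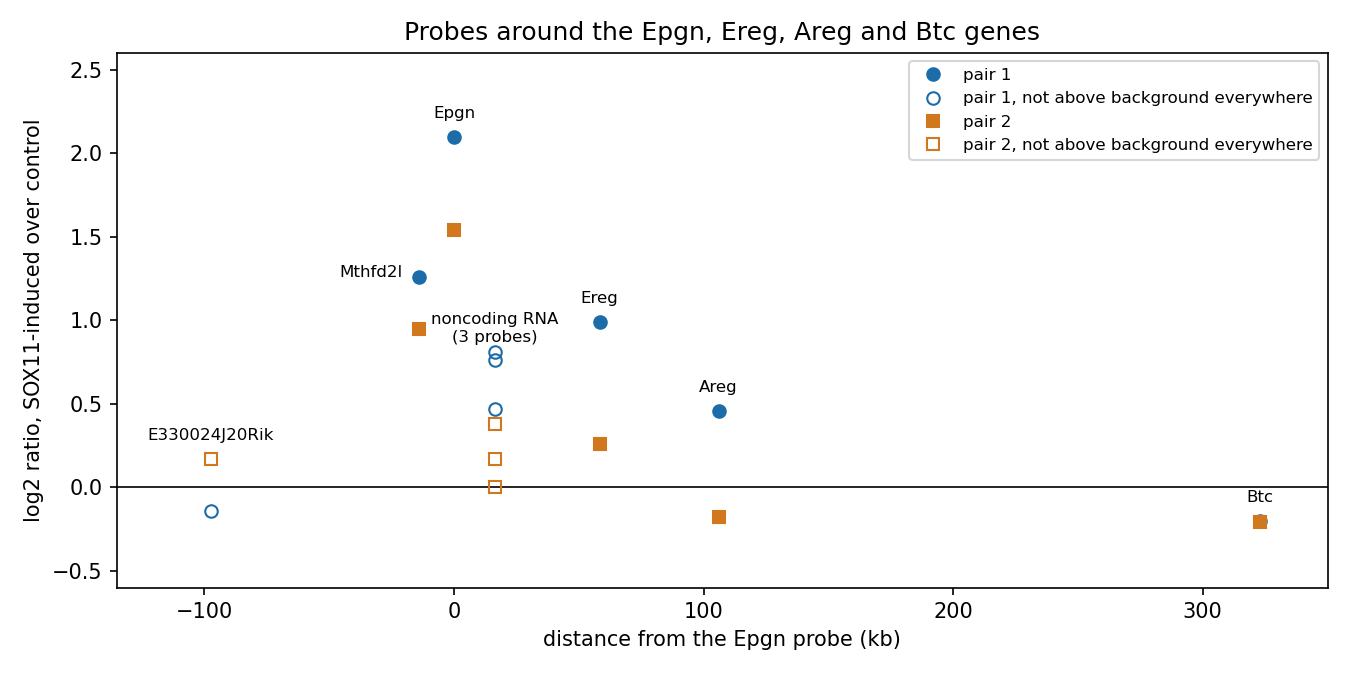
Log2 ratios of the 9 probes around the ligand genes of chromosome 5, against the distance from the Epgn probe in kb, with pair 1 as circles and pair 2 as squares; open symbols mark probes not above background in every channel. Mthfd2l and Epgn have the highest ratios in both pairs, and Btc, 323 kb from Epgn, lies slightly below 0.

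Hbegf (heparin-binding EGF-like growth factor, on chromosome 18), which is released at wound edges and supports keratinocyte migration, came closest to the threshold among the members that missed it. Its log2 brightness was 9.57 and 10.32 in the controls and 10.09 and 10.97 in the SOX11-induced pups. The groups overlapped because both pups of pair 2 were brighter, yet each SOX11-induced pup exceeded its littermate. The log2 ratios of 0.52 and 0.65 gave a mean of 0.59 ± 0.0908 (SD, n = 2 pairs; 95% interval 0.25 to 0.93), with an adjusted p of 0.0642 in limma. Hbegf passed the threshold with an offset of 50 (adjusted p = 0.00793) and when only probes above background were tested (adjusted p = 0.0442), and with median centring its mean was 1.23 (adjusted p = 0.00045).

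Tgfa (transforming growth factor alpha, an autocrine ligand of keratinocytes; probe chr6:86224838-86224897, plus strand, mm9) was the dimmest member, at a log2 brightness of 5.99 and 6.47 in the controls and of 6.48 and 6.52 in the SOX11-induced pups. The difference lay in pair 1, with a log2 ratio of 0.49, while pair 2 was at 0.04, and the mean was 0.27 ± 0.32 (SD, n = 2 pairs; adjusted p = 0.394 in limma). With median centring the mean was 0.56 (adjusted p = 0.0249 in limma), while the medians of the probes above background were 0.49 and 0.57. The 10 spots of pair 1 were all above 0, with a median of 0.45, whereas of the 7 spots kept in pair 2, 5 were above and 2 below 0. The spots of the 2 pairs did not overlap.

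Errfi1, the brightest member probe (chr4:150242886-150242945, plus strand, mm9), had a log2 brightness of 11.65 and 11.96 in the controls and of 12.05 and 12.34 in the SOX11-induced pups. The groups were separated by a small margin, and the pairs were close, at 0.40 and 0.38. The mean of 0.39 ± 0.0127 (SD, n = 2 pairs; 95% interval 0.05 to 0.72) had an adjusted p of 0.181 in limma, and of 0.0313 with an offset of 50. With median centring the mean was 1.08 (adjusted p = 0.000798 in limma).

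**Figure D4:**
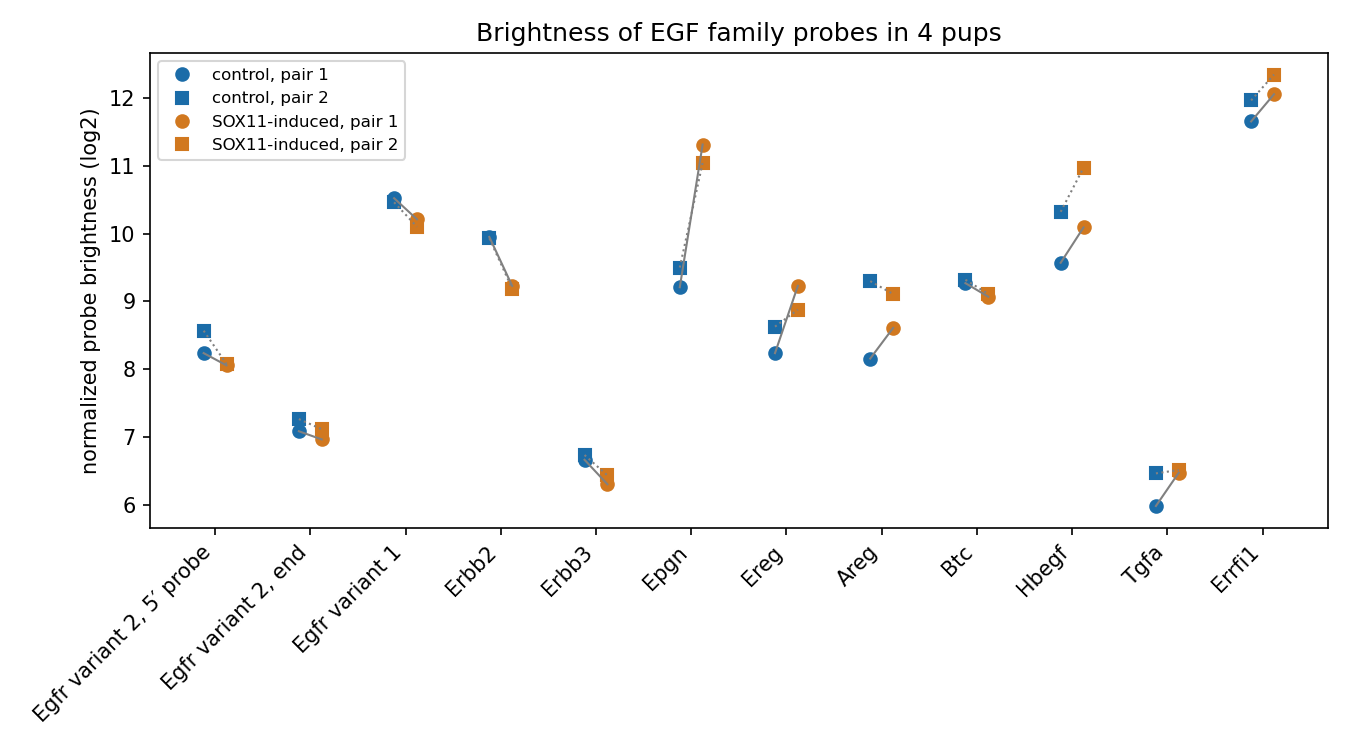
Normalized log2 brightness of the 12 probes in the 4 pups, controls in blue and SOX11-induced pups in orange, with circles for pair 1 and squares for pair 2; lines join littermates. Epgn shows the steepest rise, the receptor probes slope down in both pairs, and Areg slopes up in pair 1 and down in pair 2.

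Across the members, both SOX11-induced pups were above both controls for 4 probes (Epgn, Ereg, Tgfa and Errfi1) and below both for 5 (Egfr variant 1 and probe 1, Erbb2, Erbb3 and Btc). These shares have to be read against 24.6% and 22.1% of all probes, respectively. Ratios were higher in pair 1 than in pair 2 for 10 of the 12 probes, a share that was not counted over all probes. The gap between pairs was 0.45 or more for Epgn, Ereg, Areg and Tgfa, between 0.03 and 0.31 for Egfr, and at most 0.13 for Erbb2, Erbb3, Btc, Hbegf and Errfi1.

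The other ErbB receptors and ligands were mostly dim. Of these 6 genes (10 probes), 0 rose and 1 fell, beside 5.88% of all gene names past the threshold in either direction. Nrg4, a neuregulin that binds ERBB4, had 3 probes above background, with means of -0.89 (adjusted p = 0.0188 in limma), -0.49 and -0.38. Nrg1, the main ligand of ERBB3, had log2 ratios of 2.03 and 0.41 and a mean of 1.22 ± 1.15 (SD, n = 2 pairs), which did not pass the limma test (adjusted p = 0.0611). Its controls, at a log2 brightness of 6.0 and 7.74, differed by more than the SOX11-induced pups, at 8.03 and 8.15. Nrg2 had 1 probe above background, with a mean of 0.30 (adjusted p = 0.287 in limma), and a second that was not. Erbb4, Egf and Nrg3 were not above background in any channel.

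Genes that act before and after the receptors were read from 4 further lists. With the other ErbB genes these covered 57 measured genes of 58, of which 7 rose and 1 fell at an adjusted p under 0.05. The 8 genes are 14% of those measured, against the 5.88% of all gene names given above. That 5.88% also counts names not above background, whereas most listed genes were above it, so these shares are not like for like. When only probes above background were tested, 12 listed genes passed, while 1693 of all 21782 such probes rose and 823 fell. These lists too were chosen with earlier results known, so the share is a description. None of the 6 genes of ligand shedding passed, and their median log2 ratio was -0.05. None of the 9 genes of receptor inhibition and turnover passed either, with a median of 0.03. The 20 measured adaptors and kinases of the cascade, 19 of them above background, had a median of 0.32, against 0.03 for all gene names above background. Of the 20, 2 rose and 0 fell, beside the 5.88% of all gene names past the threshold in either direction. The 2 were Plcg1, a phospholipase that binds activated EGFR, with a mean of 0.72 on 1 of 3 probes (adjusted p = 0.0328 in limma), and the transcription factor Stat3, with 0.73 on 1 of 2 probes (adjusted p = 0.0387 in limma). Their other probes above background had means of 0.56 for Plcg1 and 0.58 for Stat3, both short of the threshold.

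Feedback genes and targets of ERK had a median of 0.41, and 5 of 16 rose while 0 fell, against 5.88% of all gene names past the threshold in either direction. Of these 16 genes, 15 were above background, while the 5.88% also counts names that were not. Etv4, an ETS factor downstream of receptor tyrosine kinases, rose on both probes. The study also lists Etv4 as a direct target of SOX11 and its relative SOX4. What part of the Etv4 rise came through ERK was not tested. The brighter Etv4 probe had a log2 brightness of 8.57 and 9.33 in the controls and of 11.27 and 10.80 in the SOX11-induced pups, and its mean was 2.09 ± 0.87 (SD, n = 2 pairs; adjusted p = 0.00236 in limma). Its relative Etv5 had log2 ratios of 1.60 and 1.59, with a mean of 1.59 (adjusted p = 0.000624 in limma). Egr1, an immediate early factor, had a mean of 0.99 (adjusted p = 0.00969 in limma), and Dusp6, a phosphatase that removes phosphate from ERK, of 0.87 (adjusted p = 0.0245 in limma). The fifth was the immediate early gene Ier3, at 0.83 (adjusted p = 0.0242 in limma), which the rule of 4 named genes per list would have left out. Within the same list, Spry4 was not above background in any channel, Myc was at -0.17 and Fosl1 at 0.12. Etv1, a further ETS factor, had means of 0.43 and 0.21 on its 2 probes and did not pass, nor did the other Sprouty and Spred genes, with means from 0.15 to 0.56.

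The pairs also differed in hair follicle genes. None of the 10 genes of hair shaft and inner root sheath passed the test, and their median log2 ratio was 1.74 in pair 1 and -0.38 in pair 2. The summed brightness of this list was 94600 in the control and 330000 in the SOX11-induced pup of pair 1, and 518000 and 400000 in those of pair 2. Each array measured all 10 above background. Ratios were higher in pair 1 for 10 of the 12 member probes and for Nrg1. The 4 ligands with the larger gap (Epgn, Ereg, Areg and Tgfa) were grouped by that gap itself. Epgn, Ereg, Tgfa and Nrg1 were above 0 in both pairs, while Areg was at 0.46 and -0.18. Erbb2, Hbegf, Btc and Errfi1 had nearly equal ratios in both pairs. The part of follicle content in any of these ratios was not tested. Of the basal keratinocyte list, 2 of 6 genes fell, against 5.88% of all gene names past the threshold in either direction, and the median was -0.42. All 6 were above background, while the 5.88% also counts names that were not. Of the suprabasal list, 0 of 6 passed, with a median of 0.44. The receptor probes were below 0, as was the basal list by the brightest probe of each gene. Trp63 of that list was divided, with probe means of -0.22, 0.08, 0.52 and -0.23. The part of basal cell content in the receptor values was not tested. The fibroblast list had 1 gene of 6 that fell (Dcn, -0.79), beside that 5.88% of all gene names. The summed brightness of this list was 1100 and 1180 in the controls and 834 and 1540 in the SOX11-induced pups. The leukocyte list had sums of 15300 and 5400 in the controls and of 11700 and 4080 in the SOX11-induced pups. These differ between the pairs more than between littermates, and their part in the ligand values was not tested. Of the melanocyte and endothelium lists no gene passed.

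**Figure D5:**
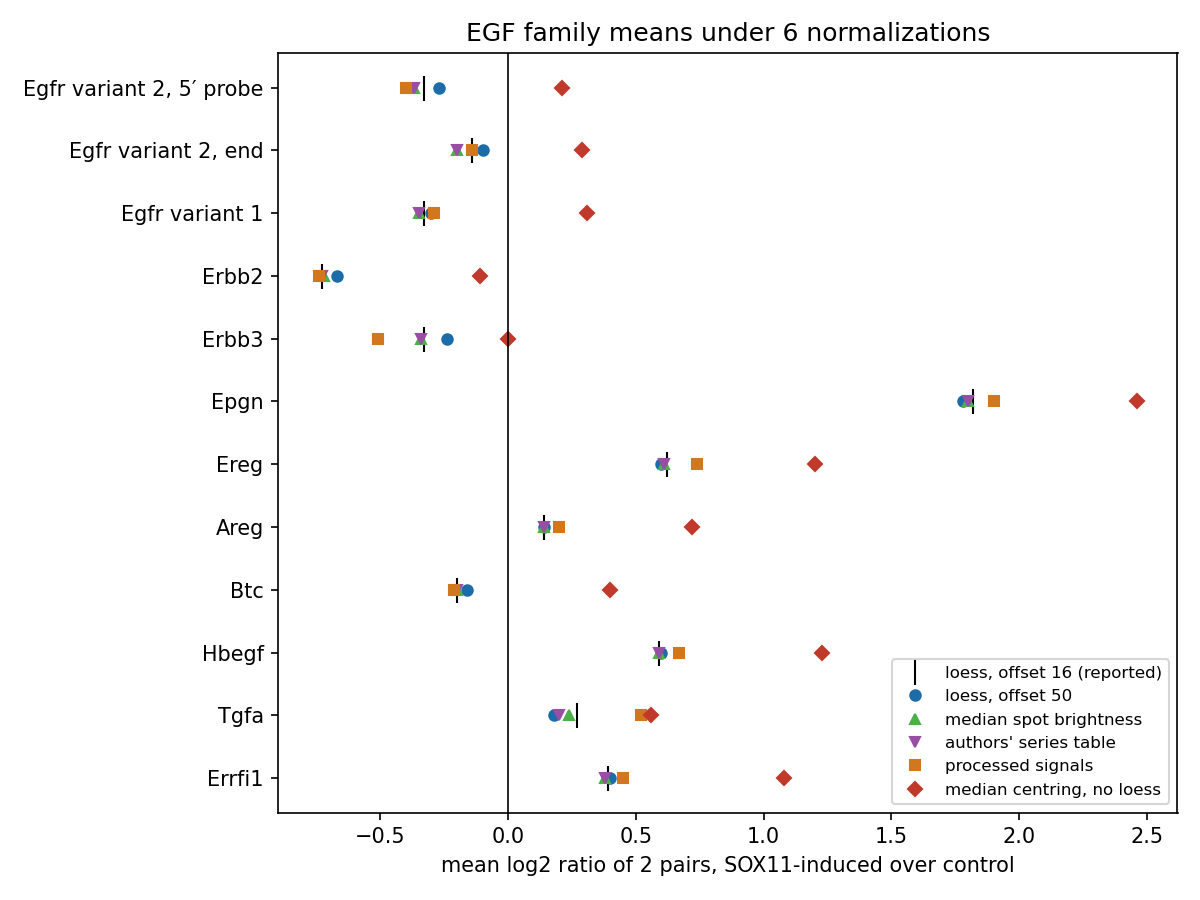
Mean log2 ratio of the 2 pairs for each of the 12 probes under 6 normalizations, from SOX11-induced over control. Median centring without loess (diamonds) lies to the right of the other settings for every probe, taking Erbb2 from -0.73 to -0.11 and Epgn from 1.82 to 2.46, while the order of the extremes, Epgn above and Erbb2 below all other members, is kept.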

How the data were processed

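RNA from the epidermis of 2 littermate pairs was hybridised to 2 two-colour Agilent arrays, with the control in Cy3 and the SOX11-induced pup in Cy5 per the labels. The intensity values that the authors deposited are spot and local background brightness per channel, in scanner units and not normalized. They come from Agilent Feature Extraction, with 10.7.3.1 in the grid placement field of the file headers, while the methods of the study give another version. The headers place probes on mm9. The submitters' processing notes name the same software and limma. A further table gives log2 ratios computed by the authors, used as an alternative only.

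Values were computed with limma 3.58.1 in R 4.3.3. The mean brightness of spots was corrected by normexp with the median background (offset 16), and ratios were centred by loess. Control spots and spots with outlier flags (194 and 186) were then left out, and spots of a probe were averaged. A linear model of the mean alone was fitted to the 2 ratios of 55676 probes, with eBayes and Benjamini-Hochberg adjustment over all of them. The ratio of an array is the paired difference of littermates. An exact sign-flip test of 2 pairs cannot give a p under 0.5, so calls rest on the moderated variance, with a prior of 8.14 degrees of freedom and an SD of 0.223. The number of arrays limits the precision. Between 37.5% and 42.6% of the 59305 non-control spots were well above background per channel. The fit was tested on simulated data. Brightness per pup came from loess ratios with Aquantile scaling between arrays, and an order of brightness between probes is that of the probes, not of transcript levels. A probe was above background where at least 0.5 of its spots were, and list medians used the brightest probe of each gene.

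Members and lists were chosen with earlier results of these data known. Every member was named with all probes, as was every other ErbB gene, and of the further lists up to 4 genes past the threshold. Alternatives were an offset of 50, median spot brightness, median centring, processed signals, the series table, probes above background only (21782) and each pair alone. One alternative, a loess curve without control spots, was chosen after seeing the data. Promoter windows are RefSeq sequence on GRCm38.p6, matched by symbol, and were read for 7 of 10 genes. No window was available for Ereg and Erbb3, and Hbegf, on chromosome 18, was left out of this step. No coordinates were converted between builds.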

Additional observations from a re-analysis of the deposited data

How the results depend on the processing

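Epgn stayed above 1.5 and past the adjusted p of 0.05 under every normalization tried except the processed signals (1.90, adjusted p = 0.259), which left 0 probes past the threshold in either direction across the array, although 7 of the 12 member probes had an unadjusted p under 0.05 there. Leaving out 1 pair gave 1.54 to 2.10 for Epgn and -0.74 to -0.72 for Erbb2, with no test; for Areg, pair 2 alone reversed the direction, over a range of -0.18 to 0.46. Erbb2 did not pass with the processed signals (-0.74, adjusted p = 0.242) or with median centring (-0.11, adjusted p = 0.614). Median centring reversed the 3 Egfr probes (0.31, 0.21 and 0.29) and Btc (0.40) and put Erbb3 at 0.00. It also moved the medians of the probes above background to 0.49 and 0.57, so the Egfr, Btc and Erbb3 probes were still below them. The number of member probes that rose was 1 as reported, 3 with an offset of 50, 6 with median centring, 0 with processed signals and 2 when only probes above background were tested. Over all 55676 probes, 1614 rose as reported, 2847 with an offset of 50 and 12565 with median centring. The number that fell was 1 as reported and 0 with median centring and with processed signals, and the number past 1.5 upward was 0 with processed signals. Over all probes, 754 fell as reported and 5410 with median centring. The pathway genes past the threshold were 8 as reported, 18 with an offset of 50, 12 when only probes above background were tested, 43 with median centring and 0 with processed signals. The 43 came under the setting in which 12565 probes rose and 5410 fell over the array. Median spot brightness, the authors' series table and a loess curve without control spots changed no member's side of the threshold. The split of higher against lower calls over the array was 68.2% higher as reported and between 65.2% and 69.9% where any probe passed. With 2 pairs, the 95% intervals of the members that did not pass were wide enough to hold changes of up to 1.06 on the log2 scale.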
